A study of Mus musculus with 10 samples.

Results

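Crat, Angptl4 and Cyp4a10 are genes that the fatty acid receptor PPAR-alpha switches on in liver, and all 3 had lower mean intensities in livers of mice heterozygous for Gyk than in wildtype livers. They were chosen among PPAR-alpha targets for low values in the heterozygous group, so the log2 difference between the groups is given as a description and was not tested. They are 3 of 7409 genes that a probe could be named for, and 4 of 24048 probes belong to them, with 1 probe for Crat, 1 for Angptl4 and 2 for Cyp4a10. The brightest probe of each gene stands for it below. All 4 probes were detected on all 10 arrays.

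Livers of 10 female mice were measured at 23 weeks of age, 5 labelled Gyk heterozygous and 5 labelled Gyk wildtype of the strain C57Bl/6J, each on an Illumina bead array of its own. Glycerol kinase, the product of Gyk, phosphorylates glycerol, and its gene is X-linked. The labels call the altered mice transgenic and do not describe the allele. Both groups ate chow with 4% fat up to 11 weeks of age and chow with 6% fat after that. In a female heterozygote each liver cell uses either the altered or the intact copy, so such a liver is a mosaic.

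PPAR-alpha is a nuclear receptor of hepatocytes. It binds DNA together with the retinoid receptor RXR, is activated by fatty acids and their derivatives, and raises the transcription of genes that take up, activate and oxidize fatty acids in mitochondria, peroxisomes and the endoplasmic reticulum. Fasting is the best known state in which the liver uses it. Crat codes for carnitine acetyltransferase, which moves short acyl groups between coenzyme A and carnitine. Angptl4 codes for a secreted protein that inhibits lipoprotein lipase, the enzyme that frees fatty acids from triglyceride-rich lipoproteins. Cyp4a10 codes for a cytochrome P450 that hydroxylates fatty acids at their far end, the first step of omega oxidation.

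The arrays detected between 9991 and 10859 probes each. Precision is limited by how few arrays there were. The brighter Gyk probe (gene symbol Gk) had intensities of 234.7 to 432.9 in heterozygous and 416.3 to 914.2 in wildtype livers. After normalization all 5 heterozygous values lay below the wildtype values, as for 0.802% of the 10225 probes detected on at least 5 arrays. The highest heterozygous log2 value was 9.04 and the lowest wildtype one 9.05. A second Gyk probe was detected on 0 arrays. The arrays of heterozygous replicate 1 and wildtype replicate 1 stood apart from the other 8. Across probes their correlation was 0.991, while their correlations with the rest were 0.934 to 0.967. Without both, the log2 differences were -0.59 for Crat, -0.50 for Angptl4 and -0.37 for Cyp4a10, and some other values below are also given without both. The number that leads a sample's title was 1 for heterozygous replicates 1 to 3 and wildtype replicate 1, 2 for heterozygous replicates 4 and 5 and wildtype replicate 2, and 7 for the other wildtype livers. The labels do not say what it stands for. Apoa1 and Serpina1a, secreted products of hepatocytes and the 2 of 7 hepatocyte markers with a named probe, were detected on every array. In whole liver, fewer cells of a type and less RNA per cell cannot be told apart.

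Crat was the most variable of the 3 genes among heterozygous mice. Its intensity was 1232.7, 1917.2, 1384.1, 952 and 584.1 in heterozygous replicates 1 to 5. In wildtype replicates 1 to 5 it was 2205.2, 1919.7, 1634.9, 1541.1 and 1947.2. Heterozygous replicate 2 lay among the wildtype livers, and the other 4 heterozygous livers lay below all of them. The heterozygous mean, 1214 ± 497.3 (SD, n = 5), was 65.6% of the wildtype mean of 1849.6 ± 265.6 (SD, n = 5). On the normalized log2 scale the difference was -0.61 with an SE of 0.25, and it was -0.39 without heterozygous replicate 5, the lowest liver. The coefficient of variation was 41.0% among heterozygous and 14.4% among wildtype livers, a difference in spread that was not tested.

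Angptl4 showed a similar difference with a more even spread. The intensity was 2449.4, 3684.6, 3981.5, 3032.7 and 3170.7 in heterozygous replicates 1 to 5. Wildtype replicates 1 to 5 had 5296.9, 3624.1, 4712, 6704.8 and 5734.4. Wildtype replicate 2 was the only wildtype liver below 2 of the heterozygous ones, and the groups were otherwise separate. The means were 3263.8 ± 595.3 (SD, n = 5) and 5214.4 ± 1148.9 (SD, n = 5), which puts the heterozygous mean at 62.6% of the wildtype mean. The log2 difference was -0.59 with an SE of 0.17. The coefficients of variation were 18.2% in heterozygous and 22.0% in wildtype livers.

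Cyp4a10 was the only member whose deposited intensities did not overlap between the groups. Its brightest probe had 28846.2, 33732.2, 31547.7, 20206.3 and 19396.7 in heterozygous replicates 1 to 5. In wildtype replicates 1 to 5 the values were 46237.3, 36113.4, 35019.7, 39160.4 and 38212.2. All 5 heterozygous values were below the lowest wildtype value, as they were for 1.57% of the 10225 probes detected on at least 5 arrays. After quantile normalization heterozygous replicate 2, at a log2 value of 15.30, passed the lowest wildtype value of 15.09, and 4 of 5 remained below it. The means were 26745.8 ± 6577.5 (SD, n = 5) and 38948.6 ± 4392.8 (SD, n = 5), or 68.7% of the wildtype mean. The log2 difference was -0.40 with an SE of 0.17. It was -0.57 when the deposited values were left without normalization and -0.55 with median scaling. The other brightest listed genes, Mt1, Apoa1, Apoe, Apoc3 and Acaa1b, also had lower deposited means in heterozygous liver. Without normalization Mt1, Apoa1 and Apoe had log2 differences of -0.30, -0.20 and -0.10, and with it -0.09, -0.01 and 0.07. Deposited Mt1 intensities did not overlap either, with 38931.2 the highest heterozygous and 39032.1 the lowest wildtype value.

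The second Cyp4a10 probe gave the same order of the groups. Its intensity was 9393.2, 8929.5, 9565.1, 5581.3 and 4816.7 in heterozygous replicates 1 to 5. In wildtype replicates 1 to 5 it was 16899.2, 10434.2, 10661.7, 10693.2 and 9962.1. Wildtype replicate 1 was well above the rest. All heterozygous values lay below all wildtype values before and after normalization, as for 1.57% and 0.802% of the 10225 probes. For this probe the highest normalized heterozygous log2 value was 13.25 and the lowest wildtype one 13.26. Its mean in heterozygous liver, 7657.2 ± 2272.1 (SD, n = 5), was 65.3% of the wildtype mean of 11730.1 ± 2904.4 (SD, n = 5), and the log2 difference was -0.58 with an SE of 0.22. Both probes measure the same livers and the same contrast that chose the gene, so they are not separate evidence of it. In the gene table Cyp4a10 lies between its relatives Cyp4a14 and Cyp4a31, for which no probe could be named. The deposited tables do not show whether either probe also binds their transcripts.

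**Figure D1:**
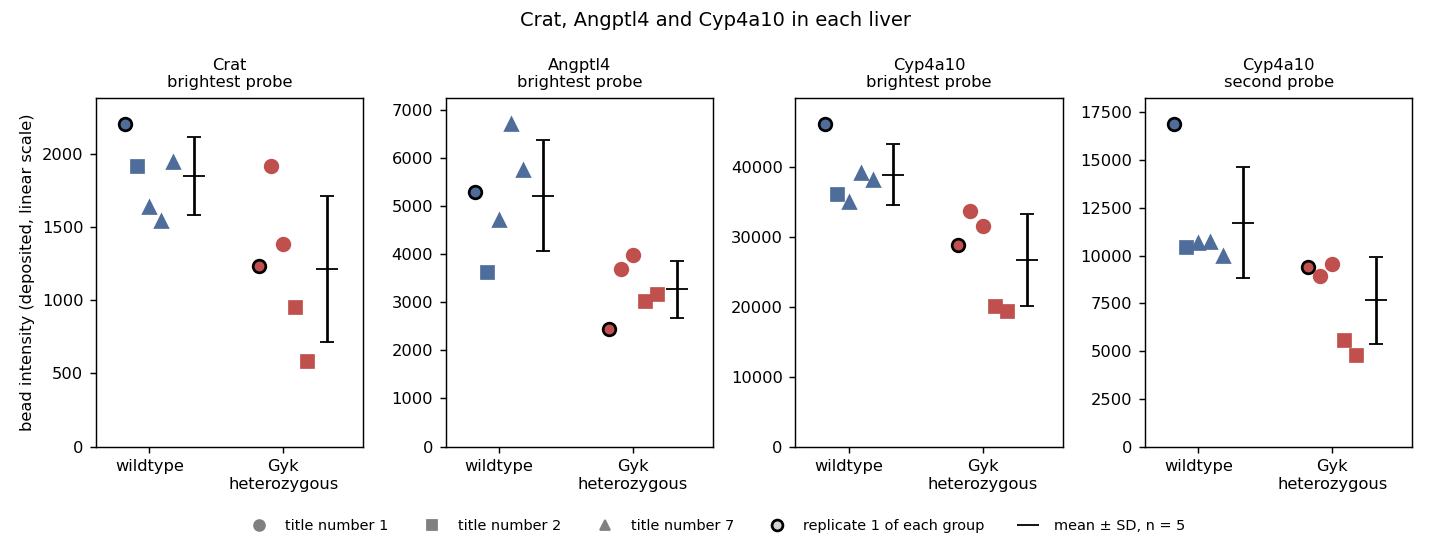
Deposited bead intensity (linear scale) of the 4 probes in each of 10 livers, with marker shape for the title number, a black outline for replicate 1 of each group, and the mean ± SD of 5 livers per group. For Crat and both Cyp4a10 probes the 2 lowest livers are heterozygous replicates 4 and 5, which carry title number 2, while the lowest for Angptl4 is heterozygous replicate 1 at 2449.4.

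Over the whole array, all normalized values of the heterozygous group lay below all wildtype values for 0.802% of the 10225 probes. With limma and Benjamini-Hochberg adjustment over these probes, 0% passed at 0.05, while at an unadjusted p under 0.05 limma had 4.68% lower and 7.26% higher in heterozygous liver. The number passing after adjustment depended on single arrays: it was 0 with all 10, 436 without wildtype replicate 1, 218 without both arrays that stand apart and 410 with array weights. The median log2 difference over all probes was -0.01, and 1.19% of probes had a difference as low as or lower than that of Cyp4a10. The contrast chose the 3 genes, so nothing is read from their place in it.

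The 3 genes differed in how they followed the title number. Within number 1, the mean Crat intensity was 1511.3 in 3 heterozygous livers against 2205.2 in 1 wildtype liver. Within number 2 it was 768 in 2 heterozygous livers against 1919.7 in 1 wildtype liver. The log2 differences were -0.44 and -1.21. Cyp4a10 had log2 differences of -0.27 within number 1 and -0.75 within number 2, and its second probe -0.71 and -0.93. For Angptl4 the larger difference was within number 1, at -0.51, with -0.15 within number 2. All 4 probes were thus lower in heterozygous liver under both numbers, but each number held only 1 wildtype liver, and for number 1 that liver's array was one of those standing apart. With the title number as a term in the fit, the log2 differences were -0.81 for Crat, -0.34 for Angptl4 and -0.50 for Cyp4a10.

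Among the heterozygous livers alone, those with title number 2 were lower than those with number 1 by a log2 difference of -0.93 for Crat, -0.69 for Cyp4a10 and -0.85 for its second probe. The highest of the 2 livers was below the lowest of the 3 in each case. For Angptl4 this difference was -0.08 and the values overlapped. These are 3 livers against 2 and were not tested.

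**Figure D2:**
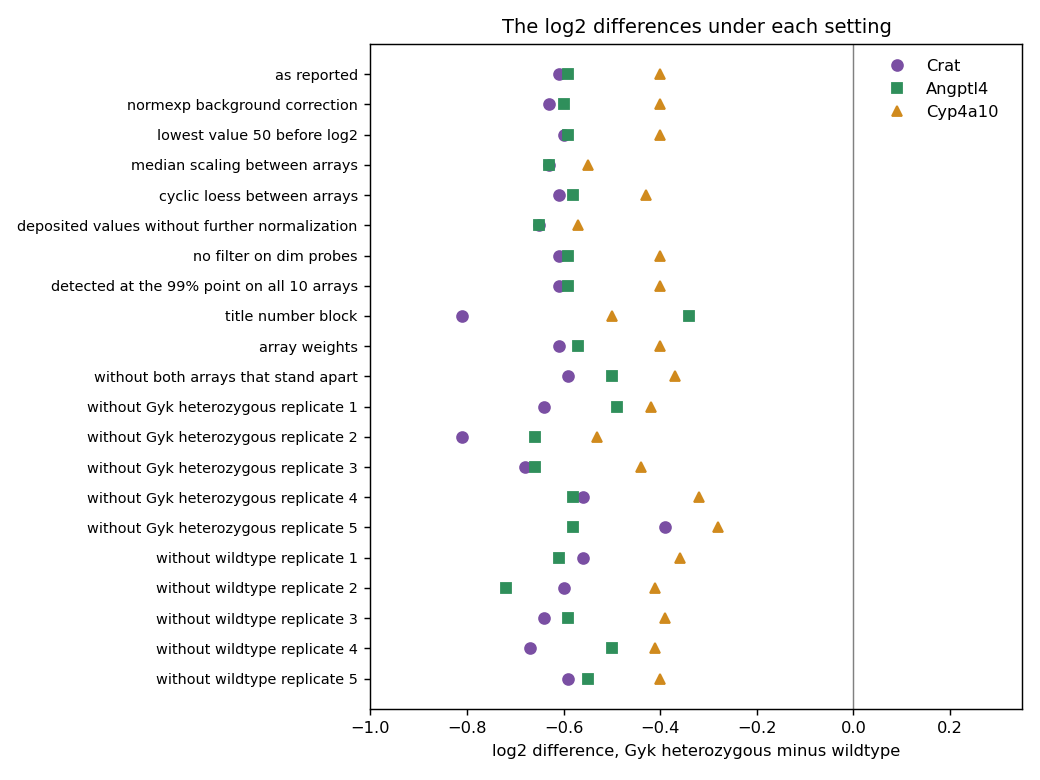
Log2 difference (heterozygous minus wildtype) of the brightest probe of each gene as reported and under 20 other settings, listed on the vertical axis. All values are below 0, from -0.81 to -0.39 for Crat, -0.72 to -0.34 for Angptl4 and -0.57 to -0.28 for Cyp4a10.

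Whether the 3 genes vary together among mice of the same genotype is a question the choice of members did not use. It was asked with each liver's deviation from the mean of its group, over the 8 livers whose arrays did not stand apart. Crat and Cyp4a10 ran closely together. Their deviations correlated at Pearson r = 0.94 and Spearman rho = 0.91 (n = 8), with an exact permutation p of 0.059 within genotypes and 0.177 adjusted over 3 pairs, which did not pass. The smallest p that the 576 exchanges allow was 0.00174. Exchanges among the wildtype livers, whose deviations were small, hardly changed r, so p depended mostly on the order of 4 heterozygous livers. The test thus had little room to pass. The spread lay mostly in the heterozygous group, where Crat deviations ran from -0.87 to 0.79 and those of Cyp4a10 from -0.46 to 0.57. The wildtype deviations ran only from -0.19 to 0.13 for Crat and from -0.02 to 0.03 for Cyp4a10. Quantile normalization narrowed the latter range. In these wildtype livers the deposited Cyp4a10 intensities ran from 35019.7 to 39160.4 and the normalized log2 values from 15.09 to 15.14. The second Cyp4a10 probe ran from 13.26 to 13.48 after normalization. Without the 2 livers farthest from the median of Crat, r was 0.81 over 6 livers. Those left out were heterozygous replicates 2 and 5. The heterozygous livers that remained were replicate 3, of title number 1, and replicate 4, of title number 2, so this r rests mostly on their difference. The relation thus rests largely on 4 heterozygous livers, which also differed in title number.

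Over all 10 livers the same relation had r = 0.94 and rho = 0.94, with an exact permutation p of 0.00181, or 0.00542 adjusted over 3 pairs. The 2 added arrays stand apart over all probes. Wildtype replicate 1 was the highest wildtype liver in both genes, with deviations of 0.20 for Crat and 0.15 for Cyp4a10, where the other wildtype livers had at most 0.08 and -0.01. Crat also went with the second Cyp4a10 probe, at r = 0.90 and rho = 0.79 over the 8 livers, a pair chosen after its values were seen. The 2 Cyp4a10 probes correlated with each other at r = 0.95 and rho = 0.92.

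Neither pair with Angptl4 passed the test. With Crat it had r = 0.27 and rho = 0.43 (n = 8, exact permutation p = 0.373, adjusted 0.373). With Cyp4a10 it had r = 0.42 and rho = 0.56 (n = 8, exact permutation p = 0.153, adjusted 0.229). Without the 2 livers farthest from the median of the first gene, r was -0.07 for Crat with Angptl4 and 0.89 for Angptl4 with Cyp4a10, over 6 livers each. Wildtype replicate 2, with the lowest wildtype Angptl4 value, had Crat and Cyp4a10 close to the wildtype mean. Without that liver r was 0.61 for Crat with Angptl4 and 0.71 for Angptl4 with Cyp4a10, both with an exact permutation p of 0.319 after adjustment. That the correlations of the 3 pairs differ from each other was not tested.

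**Figure D3:**
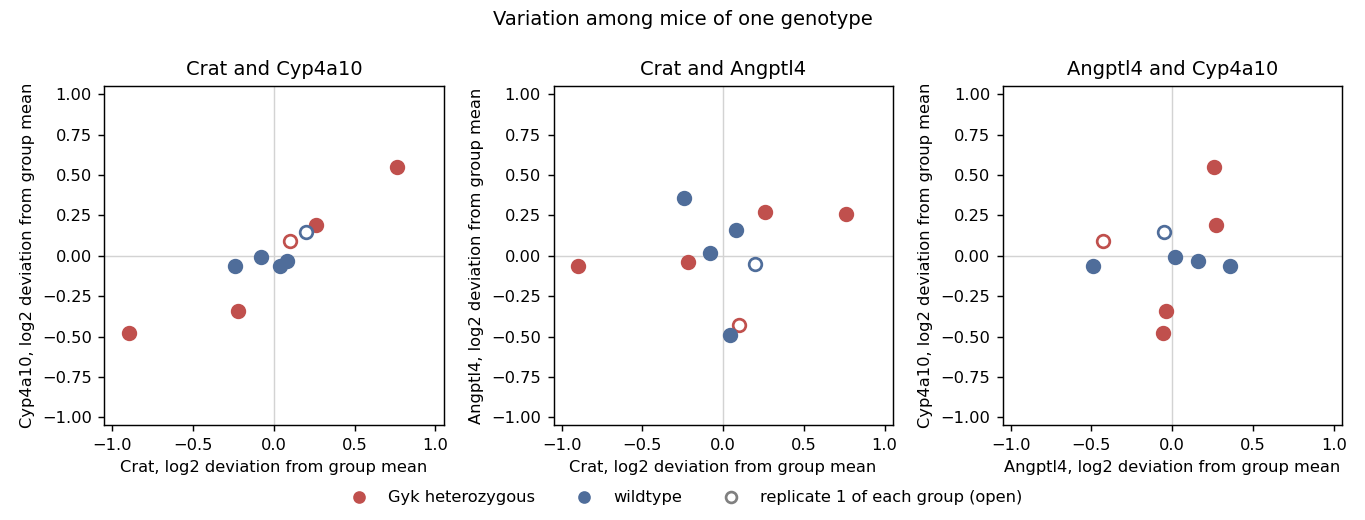
Each point is 1 liver, placed by the deviation of its normalized log2 value from the mean of its own group for the 2 genes named, with open points for replicate 1 of each group. Crat and Cyp4a10 lie along a line that the heterozygous livers stretch from -0.90 to 0.76 in Crat, while the panels with Angptl4 show scatter.

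Of 3727 other named genes detected on at least 5 arrays, Cyp4a10 had the pattern most like Crat over the 10 normalized values (r = 0.964). Crat in turn had the pattern most like Cyp4a10. These values hold the difference between the groups by which both genes were chosen, which raises their likeness. By within-genotype deviations over 8 livers, Cyp4a10 ranked 4 for Crat and Crat ranked 3 for Cyp4a10. The next most like Crat were Crip2 (0.932) and Rrp12 (0.920), and next for Cyp4a10 were Crip2 (0.902) and Fkbp14 (0.886). Crip2 codes for a LIM domain protein and Fkbp14 for an isomerase of the endoplasmic reticulum. For Angptl4 the most alike were Atad3a, which codes for a mitochondrial membrane ATPase (0.921), and Rbm8a, a part of the exon junction complex (0.919). Angptl4 itself ranked 163 for Crat and 127 for Cyp4a10. These are descriptions over 10 livers that share 2 arrays standing apart, and they are the highest of 3727 correlations per gene.

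The receptor and its partners gave few values. Of 19 genes of the receptor, its partner and its coregulators, 12 had a named probe and 6 were detected on at least 5 arrays. Of these 6, 0 had an unadjusted limma p under 0.05, against 11.9% of all probes in either direction. Ppara itself had no named probe. Rxra, which codes for the main RXR of liver, had mean intensities of 357.5 ± 53.4 in heterozygous and 296 ± 62.4 in wildtype liver (SD, n = 5 each), a log2 difference of 0.20. Rxrb had -0.16, the coactivator gene Ncoa1 -0.07 and the corepressor gene Ncor1 -0.38 (limma adjusted p 0.523, 0.548, 0.774 and 0.430 in the order given). The coactivator genes Crebbp and Ppargc1b had 0.37 and -0.09, with SEs of 0.72 and 0.19, and each changed sign under some alternatives. The median of the 6 was -0.08. The probes of Ppard, Ncoa2, Ncoa3, Nrip1 and Lpin1 were detected on 0 arrays.

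Other PPAR-alpha targets did not show a common direction. Of 60 further targets 22 had a named probe and 15 were detected on at least 5 arrays. Of these 15, 7 had lower and 8 higher values in heterozygous liver, with a median log2 difference of 0.05 against -0.01 for all probes. At an unadjusted limma p under 0.05 there were 2 of 15 lower and 0 higher, against the 4.68% and 7.26% of all probes. The 2 were Acaa1a, a thiolase of peroxisomal beta-oxidation, and Pex11a, a peroxisome membrane protein. Acaa1a had a heterozygous mean of 11709.4 ± 474.3 against a wildtype mean of 15459.3 ± 2083.2 (SD, n = 5 each) and a log2 difference of -0.27 (SE 0.09, limma adjusted p 0.339). Pex11a had 4093.9 ± 1232.2 and 6477.5 ± 1812.1 (SD, n = 5 each) and a log2 difference of -0.58 (SE 0.24, limma adjusted p 0.383). Neither passed over all probes. Without wildtype replicate 1, where 436 probes passed, Acaa1a had a log2 difference of -0.33 and a limma adjusted p of 0.0438. Over all 20 alternatives its adjusted p ran up to 0.909, reached with the title number as a term, and up to 0.673 in the others. With that term the wildtype livers of number 7 do not inform the difference, since no heterozygous liver carries that number.

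Some targets just outside the choice had differences as large as Cyp4a10's. Pex11a at -0.58, the peroxisomal fatty acid transporter gene Abcd3 at -0.50 and the lipid droplet gene Plin4 at -0.41 lay beyond its -0.40, and Acaa1a at -0.27 came next after it. Abcd3 and Plin4 had SEs of 0.35 and 0.38, and Plin4 had 0.27 in 1 of 20 alternatives. Heterozygous replicate 1 had 1387.9 for Abcd3 where the other heterozygous livers had 383.9 to 534.7. At the other end, Acsl1, which activates long fatty acids, had 0.34 and Abcd2, another peroxisomal transporter gene, 0.48, with limma adjusted p of 0.628 and 0.662. Slc27a2, which takes up and activates fatty acids, had 0.12. Acot1, Cd36, Ucp2 and Cyp4a12b were detected on 0 arrays.

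**Figure D4:**
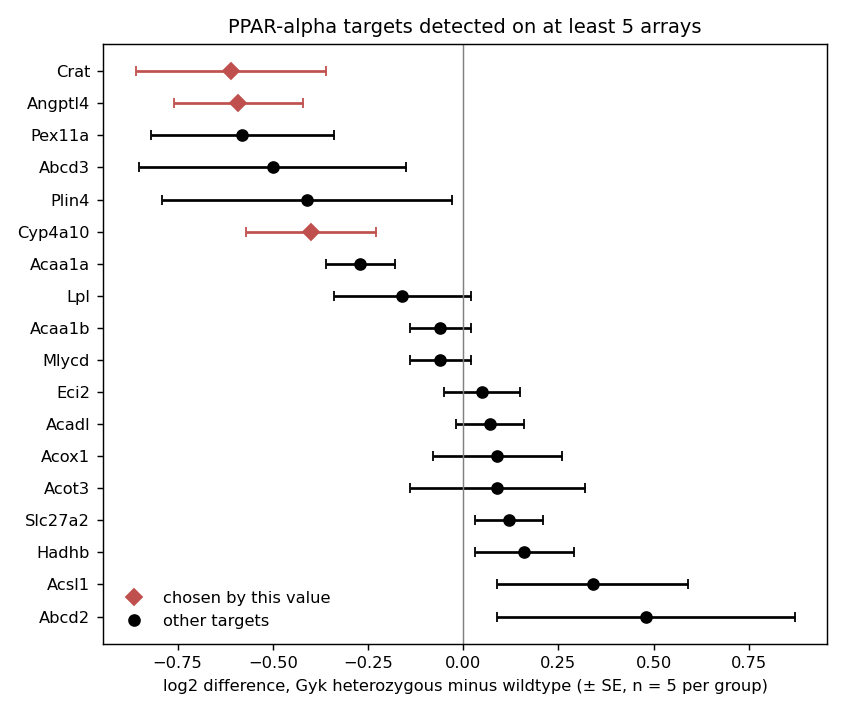
Log2 difference (heterozygous minus wildtype, ± SE, n = 5 per group) of the 3 genes chosen by this value (diamonds) and of 15 other PPAR-alpha targets (circles). The circles lie on both sides of 0, from -0.58 for Pex11a to 0.48 for Abcd2, with 7 below and 8 above.

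Within genotypes, the other targets ran more often with Crat and Cyp4a10 than against them. Over the 8 livers, 12 of the 15 had a correlation above 0 with Crat (median r = 0.54), 13 with Cyp4a10 (median 0.38) and 9 with Angptl4 (median 0.15). The medians over all named genes detected on at least 5 arrays were 0.00, 0.00 and -0.03 in that order. Of the 15, the highest were Acaa1b for both Crat (0.75) and Cyp4a10 (0.76), and Plin4 for Angptl4 (0.86). Over all 10 livers the medians of the 15 were 0.27, 0.33 and 0.06. The targets share the same livers and arrays, the comparison was chosen after the data were seen, and no test was made.

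Genes that work beside Crat in carnitine metabolism were poorly covered. Of 15 genes 5 had a named probe and 2 were detected on at least 5 arrays. Bbox1, which makes carnitine, had a log2 difference of 0.17 (limma adjusted p 0.608). Crot, the peroxisomal carnitine octanoyltransferase gene, was detected on 1 heterozygous array and 0 wildtype arrays. Shmt1, a hydroxymethyltransferase gene, had -0.26 with an SE of 0.75.

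Lipoprotein lipase and the proteins around it, the setting of Angptl4, had differences on both sides of 0. Of 25 genes 10 were detected on at least 5 arrays, with 5 lower and 5 higher values and a median log2 difference of -0.00. The lipase gene Lpl had a mean of 435.8 ± 81.8 in heterozygous and 507.1 ± 127.3 in wildtype liver (SD, n = 5 each), a log2 difference of -0.16 (limma adjusted p 0.769), which was -0.35 without both arrays that stand apart and 0.05 with the title number as a term. Gpihbp1, which anchors the lipase on endothelium, had -0.20, and Furin, a protease that cleaves the lipase and the angiopoietin-like proteins, had -0.22 (limma adjusted p 0.541 and 0.578). Lrp1, a receptor for lipoprotein remnants, had 0.16. The apolipoprotein genes Apoc2, Apoc3, Apoc4 and Apoe lay between -0.03 and 0.07. At an unadjusted limma p under 0.05 there was 1 of 10 higher and 0 lower. The shares over all probes were 7.26% and 4.68%. The 1 gene was Sel1l, of endoplasmic reticulum quality control, needed for the lipase to leave the cell, with 922.1 ± 108.8 in heterozygous and 671.4 ± 138.7 in wildtype liver (SD, n = 5 each) and a log2 difference of 0.42 (limma adjusted p 0.332). Its limma adjusted p was 0.0366 without wildtype replicate 1 and 0.0337 with array weights. With the title number as a term its difference was 0.18 and its limma adjusted p 0.909, and in the other alternatives that p reached 0.662.

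Around Cyp4a10, the other fatty acid hydroxylases had values on both sides of 0. Of 24 genes of this group 5 were detected on at least 5 arrays. Cyp4f14, which hydroxylates leukotrienes and fatty acids, had a log2 difference of 0.47 (SE 0.22, limma adjusted p 0.418), and its heterozygous mean of 7373.9 ± 1728.6 stood against 5744.8 ± 2160.4 (SD, n = 5 each). This difference was 0.08 with the title number as a term. Cyp4f13 had 0.02, Cyp4v3 -0.07 and Cyp4f16 -0.09. Por, the reductase that supplies electrons to all of these enzymes, had -0.68 with an SE of 0.17 (limma adjusted p 0.332), and all 5 normalized heterozygous values were below all wildtype values, which held for 0.802% of all probes. The difference was -0.35 with the title number as a term. With array weights the limma adjusted p of Por was 0.0328. It reached 0.909 with the title number as a term and 0.662 in the other alternatives. At an unadjusted limma p under 0.05 there was thus 1 of 5 lower and 1 higher, against 4.68% and 7.26% of all probes. Of 8 Cyp4a genes annotated as protein coding, 3 had a named probe, and Cyp4a10 alone was detected on at least 5 arrays.

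Genes of the oxidation pathways had small differences or large errors. Of 6 mitochondrial beta-oxidation genes detected on at least 5 arrays, 5 had higher and 1 a lower value, with a median log2 difference of 0.10. Etfa, an electron carrier of this pathway, had 0.14, Hadhb 0.16 and Acadl 0.07. Of 7 genes of peroxisomal beta-oxidation 5 had lower values, with a median of -0.13, and Acaa1a, given above, was the 1 with an unadjusted limma p under 0.05, against 11.9% of all probes in either direction. Scp2, the thiolase and sterol carrier gene, had -0.66 with an SE of 0.75, and Nudt19, a peroxisomal coenzyme A hydrolase gene, had -0.13. The ketone body gene Bdh1 had 0.09.

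Genes that respond to fasting and glucocorticoids, a state that also raises PPAR-alpha targets, had lower values in heterozygous liver for 7 of 7 detected members, where 53.5% of all probes had lower values. With the title number as a term 4 of 7 were lower, with a median of -0.01. The median without that term was -0.21, and 0 of 7 had an unadjusted limma p under 0.05, against 11.9% of all probes in either direction. Sgk1, a kinase gene induced by glucocorticoids, had -0.24, Tsc22d3 -0.21, Mt1 -0.09 and Pck1, of glucose production, -0.28 (limma adjusted p 0.424, 0.462, 0.632 and 0.702). Tsc22d3 was near the detection limit, with 22.4 ± 16.5 in heterozygous and 43.4 ± 21.4 in wildtype liver (SD, n = 5 each). It was detected on 2 heterozygous and 4 wildtype arrays. Pck1 had 0.15 with the title number as a term. Of 2 detected genes of the hypoxia response, Egln3, an oxygen sensor, had -0.36 (limma adjusted p 0.371) and Ero1a 0.10. The labels give no feeding state at the time the livers were taken, and the part of such a difference in the values of the 3 genes was not tested.

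Markers of other cells were looked at because Angptl4 is also made by fat and endothelial cells. Of 10 adipocyte genes 3 had a named probe. Their summed intensity ran from 3710.5 to 4908.1 in heterozygous and from 4748.3 to 5793.4 in wildtype livers. Most of it came from Pnpla2, a lipase gene that hepatocytes also use, at -0.23 (limma adjusted p 0.384). Most of the rest came from Pck1, the gene of glucose production given above. The sum thus says little about fat cells. Fabp4, the more specific one, was near the detection limit at 35.5 ± 10.6 (SD, n = 5) and 46.6 ± 15.6 (SD, n = 5). The sum over 4 endothelial genes ran from 4561.6 to 6366.2 and from 4820.4 to 6066.1, and that over 4 Kupffer cell genes from 1223 to 2452 and from 986.2 to 2667.3. Csf1r, a receptor of Kupffer cells, had a log2 difference of 0.41 (limma adjusted p 0.339), and the median of the 4 Kupffer cell genes was 0.27, or 0.09 without both arrays that stand apart, where 2 of the 4 were lower. The 2 detected hemoglobin genes had a median of -0.32, and their list's summed intensity reached 31991.5 in wildtype livers, where the highest heterozygous sum was 12766.5. Without wildtype replicate 5 their median was -0.06, and with the title number as a term it was 0.19. Krt19 of bile duct cells, Myh1 of muscle, Prss1 of pancreas, Ptprc of leukocytes, Mpo of neutrophils and Acta2, Col1a2 and Col3a1 of stellate cells were detected on 0 arrays, and the remaining detected members of these lists had adjusted p of 0.419 or more. The part of other cells in the values of the 3 genes was not tested.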

How the data were processed

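The deposited values were linear bead intensity for 24048 probes, made with BeadStudio 1.5.1.3 per the submitters' processing notes. Since 31.1% to 33.1% of an array's values lay below 0, a background had been subtracted, and further normalization is not given in the sources used here. A second table's 80 columns carry chip positions that no label ties to a sample and were not used.

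A constant of 95.2 was added, which brought the lowest value to 16, and values were taken to log2 and quantile normalized (limma 3.58.1, R 4.3.3), which shrinks differences of dim probes. Detection meant a value over 1.64 times the array's noise, estimated as the root mean square of all negative values. The 10225 probes detected on at least 5 of 10 arrays were tested with limma (moderated test, two-sided, Benjamini-Hochberg, threshold 0.05). Where a value is called a log2 difference it is on this scale, and intensities are as deposited. The SD of log2 differences between arrays was 0.24 to 0.65, and none was a duplicate. The fit and the permutation test were tested on simulated data.

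A probe was named where 1 or 2 zeros and a number after its prefix matched a gene identifier (GRCm38.p6 gene table). Of 9523 such probes 93.3% matched, against 39.6% after shifting the numbers by 13. Reading the number as a gene identifier is an inference from these shares. Each gene is given by its brightest probe. Correlations used exact permutation within genotypes, two-sided. The members and lists were chosen with earlier results of these data known. Named genes were the 3 members, Gyk, up to 8 (pathway lists) or 4 (others) genes per list with the smallest p, and the 3 most alike for each member by Pearson r over 10 arrays. One gene that this rule names is not reported here. Crot, Scp2, Apoc3, Acaa1b and genes named as not detected were added after their values were seen. Alternatives were other background corrections, normalizations, filters, the title number as a block, array weights and leaving out arrays.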

Additional observations from a re-analysis of the deposited data

Results flagged for a closer look

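Among 140 groups of 5 livers, 11 held a liver far from the other 4 on the normalized log2 scale (7.86%, where chance gives about 5%). For Cyp4a10 this was wildtype replicate 1 at 15.30, with the other wildtype livers at 15.09 to 15.14. Heterozygous replicate 1 stood apart for Crebbp (6.56, others 9.20 to 9.50), Abcd3 (10.55, others 8.89 to 9.34), Shmt1 (10.08, others 7.10 to 7.59) and Lrat (8.26, others 9.25 to 9.45). Wildtype replicate 1 did so for Gpihbp1 (9.94, others 10.33 to 10.42) and Egfl7 (8.24, others 8.70 to 8.82). Wildtype replicate 4 did so for Acsl1 (10.80, others 11.76 to 12.14) and Ero1a (6.77, others 7.02 to 7.10). Heterozygous replicate 5 was low for Gpihbp1 (9.78, others 10.14 to 10.23), and wildtype replicate 5 was high for Apoa1 (15.63, others 15.50 to 15.54).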

How the results depend on the processing

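The log2 differences of Crat, Angptl4 and Cyp4a10 were below 0 in all 20 alternatives and moved by less than 1 SD between livers. The extremes came without heterozygous replicate 2 or with the title number block (-0.81 for Crat), without heterozygous replicate 5 (-0.39 for Crat, -0.28 for Cyp4a10), without wildtype replicate 2 (-0.72 for Angptl4), with the title number block (-0.34 for Angptl4), and without normalization (-0.57 for Cyp4a10). The count of 0 probes passing became 410 with array weights, 218 without both arrays that stand apart, and 0 to 436 over the settings that leave out 1 liver, with 436 only without wildtype replicate 1. The count of 2 other PPAR-alpha targets at an unadjusted p under 0.05 was 4 with array weights and without both arrays, and 1 to 4 when 1 liver was left out. Their median log2 difference was -0.06 with detection required on all 10 arrays, and -0.03 to 0.06 when 1 liver was left out, so its sign is not settled. The correlation of Crat with Cyp4a10 was 0.94 with all 10 livers and then passed (exact permutation, adjusted p 0.00542). It did not pass in the other 13 alternatives, at 0.87 to 0.98. These used at most 8 livers, which left the test little room to pass. Of the 8 other named list genes with an unadjusted p under 0.05, 0 changed sign, and of 51 with a larger p 26 did in at least 1 alternative. These gene-wise checks were chosen after seeing the data. Filters, weights and the title number block do not enter the correlations and were not run for them. Signals near the detection thresholds of 22.0 to 41.2 limit what dim probes such as those of Fabp4, Tsc22d3, Acadl, Ero1a and Cyp4f16 can show.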

Other observations

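The level of Gyk was set beside the 3 genes among mice of the same genotype, a comparison chosen after the data were seen. Over the 8 livers the deviations of Gyk (gene symbol Gk) correlated with those of Crat at r = -0.74 and rho = -0.33 (exact permutation p = 0.0868, adjusted 0.260 over 3 pairs). With Cyp4a10 they had r = -0.58 and rho = -0.25 (exact permutation p = 0.271, adjusted 0.406), and with Angptl4 r = -0.20 and rho = -0.31 (exact permutation p = 0.594, adjusted 0.594). Without the 2 livers farthest from the median of Gyk, r was -0.51, -0.52 and 0.03 in that order, over 6 livers. Over all 10 livers r was -0.31, -0.19 and -0.31. None of the 3 relations passed.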
